A study of Mus musculus with 24 samples.

Results

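The genes described here are 52 genes of the kinetochore, the spindle and mitosis, followed in the RNA of cultured mouse vascular smooth muscle cells (VSMCs) that were loaded with cholesterol. They form a list by function, drawn up with earlier results of these data known, and were matched by symbol, with no threshold on a measured value. Where a gene had several transcript rows, the one highest on average was kept. Levels are RPKM, reads per kilobase of gene body scaled to the size of the library. All 52 were found among 18896 named genes with a value above 0, and all 52 were among the 12648 genes that entered the tests. The cells were primary VSMCs from the thoracic aorta of young adult C57BL/6J mice, grown at low passage and below confluence in medium with 10% FBS. Cholesterol-loaded cells were given Chol:MβCD, cholesterol carried by methyl-β-cyclodextrin, at 20 µg/ml. It was added with 0.2% BSA, and cells were taken after 24 h and after 48 h. Control cells received 0.2% BSA without the complex for 0, 24 or 48 h, so that the effects of cholesterol and of its carrier cannot be told apart. Poly-A RNA was sequenced in 14 libraries, 3 in each of 5 groups except control cells at 48 h with 2 (replicates 2 and 3, since replicate 1 of that group was not analysed here), and H3K27ac, an acetylated histone mark of active promoters and enhancers, was profiled in 1 library per group. The study describes the RNA libraries as biological replicates. Whether they came from separate animals is not given in the sources used here, and p-values measure the spread between these libraries. For its comparison with cells in vivo the study left out replicate 1 of the control cells at 0 h, which did not cluster with its replicates. That library was kept here.

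Entry into mitosis is driven by cyclin-dependent kinase 1 bound to A- and B-type cyclins, with the Polo-like and Aurora kinases. The chromosomes are then condensed, and kinetochores, built on centromeric chromatin that holds the histone variant CENP-A, capture spindle microtubules through the Ndc80 and Ska complexes. The spindle checkpoint holds back the anaphase-promoting complex until every kinetochore is attached, and the anaphase-promoting complex then marks securin and cyclin B for destruction. Most of these genes are transcribed in the G2 and M phases of cycling cells and are kept silent in quiescent cells such as the contractile smooth muscle of an uninjured artery. Their promoters typically carry CCAAT boxes, the site of the factor NF-Y, and a cell cycle genes homology region (CHR), most often TTTGAA, through which the DREAM and MuvB complexes act.

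Promoter sequence was available from RefSeq (GRCm38.p6, the assembly of mm10) for 42 of the 52 genes. Ccna2, Aurkb, Incenp, Zwilch, Spc24, Ska1, Kif20a, Tpx2, Dlgap5 and Cdca2 had no entry. The following stretches are the 110 bases that end just before the transcription start, 5′ to 3′ on the strand of the gene, with TTTGAA and CCAAT and their reverse complements TTCAAA and ATTGG in capitals. Cdk1 (chr10:69352913-69353022, minus strand), Cdc20 (chr4:118437344-118437453, minus), Kif22 (chr7:127042421-127042530, minus), Ube2c (chr2:164769819-164769928, plus) and Top2a (chr11:99024190-99024299, minus) are shown because both motifs lie close together there.
Cdk1: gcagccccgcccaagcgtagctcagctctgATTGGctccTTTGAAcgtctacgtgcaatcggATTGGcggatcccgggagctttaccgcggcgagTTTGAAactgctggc
Cdc20: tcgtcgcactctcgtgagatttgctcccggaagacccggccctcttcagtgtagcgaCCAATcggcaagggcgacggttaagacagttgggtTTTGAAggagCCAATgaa
Kif22: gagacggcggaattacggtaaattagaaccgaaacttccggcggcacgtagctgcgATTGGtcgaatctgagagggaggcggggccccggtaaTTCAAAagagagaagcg
Ube2c: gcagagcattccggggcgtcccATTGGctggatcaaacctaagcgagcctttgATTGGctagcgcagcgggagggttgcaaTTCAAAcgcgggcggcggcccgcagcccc
Top2a: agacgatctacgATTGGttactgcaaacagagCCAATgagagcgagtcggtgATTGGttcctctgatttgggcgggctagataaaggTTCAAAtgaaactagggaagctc

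Ccnb1 (chr13:100786487-100786596, minus strand) is shown as a gene that fell at 48 h without a TTTGAA in this stretch. Zwint (chr10:72654736-72654845, plus) and Pttg1 (chr11:43425982-43426091, minus) are shown because their RNA did not fall.
Ccnb1: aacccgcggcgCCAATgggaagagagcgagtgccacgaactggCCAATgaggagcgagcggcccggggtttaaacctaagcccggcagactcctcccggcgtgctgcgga
Zwint: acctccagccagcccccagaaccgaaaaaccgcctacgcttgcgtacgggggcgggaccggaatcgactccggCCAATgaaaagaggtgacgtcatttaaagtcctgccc
Pttg1: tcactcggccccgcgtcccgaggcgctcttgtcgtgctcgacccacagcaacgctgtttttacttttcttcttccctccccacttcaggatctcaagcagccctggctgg

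In Plk1 and Cenpa the TTTGAA lay after the start site, as in the following stretches of 24 bases (chr7:122159456-122159479 and chr5:30666893-30666916, both plus strand), again with TTTGAA in capitals.
Plk1: agcgccgcgTTTGAAttcggggag
Cenpa: gggtgatttTTTGAActgctggcg

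Over the 250 bases before the start site, TTTGAA or its complement was present in 12 of 42 promoters (28.6%), against 16% of all 32851 mouse promoters of the same table and 10.1% of the 9627 promoters of genes tested here. Over 300 bases, which add the first 50 after the start, the count was 26 of 42 (61.9%), against 17.9% and 11.4%. CCAAT on either strand was found before the start site in 29 of 42 promoters (69%), against 33.8% of all promoters and 36.1% of those of genes tested. Both motifs stood in the 300 bases of 23 promoters (54.8%), against 4.75% of those of genes tested. The less common CHR form TTCGAA was in 2 of 42 promoters before the start site (4.76%, against 1.34% of all promoters). GCGGGAA, a form of the E2F site that is usual in genes of DNA replication, was in 0 of 42 (against 3.82% of all and 6.93% of tested promoters) and in 3 of 42 over 300 bases (7.14%, against 4.6% and 8.48%). Motifs were searched as exact letters on both strands, each counted on its own, and neighbouring matches may share end bases. A match in these windows is a description of letters and not of a bound site.

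The tags recovered as whole numbers from the RPKM values, counted at most 1 per position, numbered 2730000 to 7590000 per library. They are not the mapped reads, of which the study reports more on average. Control (3840000 to 4020000) and cholesterol-loaded cells (3630000 to 4970000) held similar numbers of tags at 48 h. Both groups at 24 h held more, at 6760000 to 7590000 tags. Control cells at 0 h were the most uneven, at 2730000 to 6990000 tags. The part of these differences in comparisons between time points was not tested. Single genes of the list rested on 13 tags (Kif18a) to 1694 tags (Mki67) in a library, with a median of 180. Their mean levels ran from 0.115 RPKM for Kif18a to 11.8 for Ube2c, with a median of 1.51 RPKM against 1.92 for all genes tested, per kilobase of gene body with introns included. Smooth muscle markers were present in every library (7 genes, summed level 104 to 226 RPKM), and Acta2 and Tagln were among the higher ones at 27.6 to 61.6 and 39.4 to 99.2 RPKM. The endothelial markers summed to 0.299 to 0.767 RPKM over 6 genes. Of 7 macrophage markers, Ptprc, Adgre1, Itgam and Fcgr1 were at or near 0 (at most 0.00713 RPKM in any library). The summed level went from 4.12 and 4.18 RPKM in the control libraries to between 6.24 and 6.93 in the cholesterol libraries at 48 h. Cd68, a lysosomal protein, rose from a mean of 2.3 to 5.05 RPKM at 48 h (limma, adjusted p = 4.92e-04). Csf1r rose from 0.34 to 0.519 RPKM (limma, adjusted p = 0.0207). Lyz2, at 1.5 and 1.08 RPKM, did not pass the test (limma, adjusted p = 0.185). At 48 h the smooth muscle sum was 161 to 162 RPKM in control and 123 to 143 in cholesterol-loaded cells. Of its 7 genes, Myh11 (55.3% of control), Cnn1 (66.3%) and Smtn (69.5%) fell, Myocd rose (181%), and Acta2, Tagln and Des did not pass the test. The part of these shifts in the results on mitosis genes was not tested.

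The main comparison asked how the genes responded to 48 h of cholesterol loading. Of the 52 genes, 49 fell, 0 rose and 3 did not pass the test (limma on log2(normalised RPKM + 1) over all 14 libraries, Benjamini-Hochberg adjusted p below 0.05 over 12648 genes), against 12.9% of all genes tested that fell and 11.9% that rose. In the same 49 genes every cholesterol library at 48 h lay below every control library at 48 h, an ordering found in 23.8% of all genes tested. The median level in cholesterol-loaded cells was 55.1% of control over the 52 genes, with a range from 33.5% (Ska1) to 104% (Zwint), and it was 99.8% over all genes tested. On the scale of the test the median log2 difference was -0.44, against -0.00 for all genes. That scale understates the change of genes with low levels, since 1 is added to each value, and the median was -0.76 with a pseudocount of 0.1, -0.16 with 5, and -0.86 with voom on recovered tags. In bulk RNA, fewer cells in mitosis and less of these transcripts per cell cannot be told apart.

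**Figure D1:**
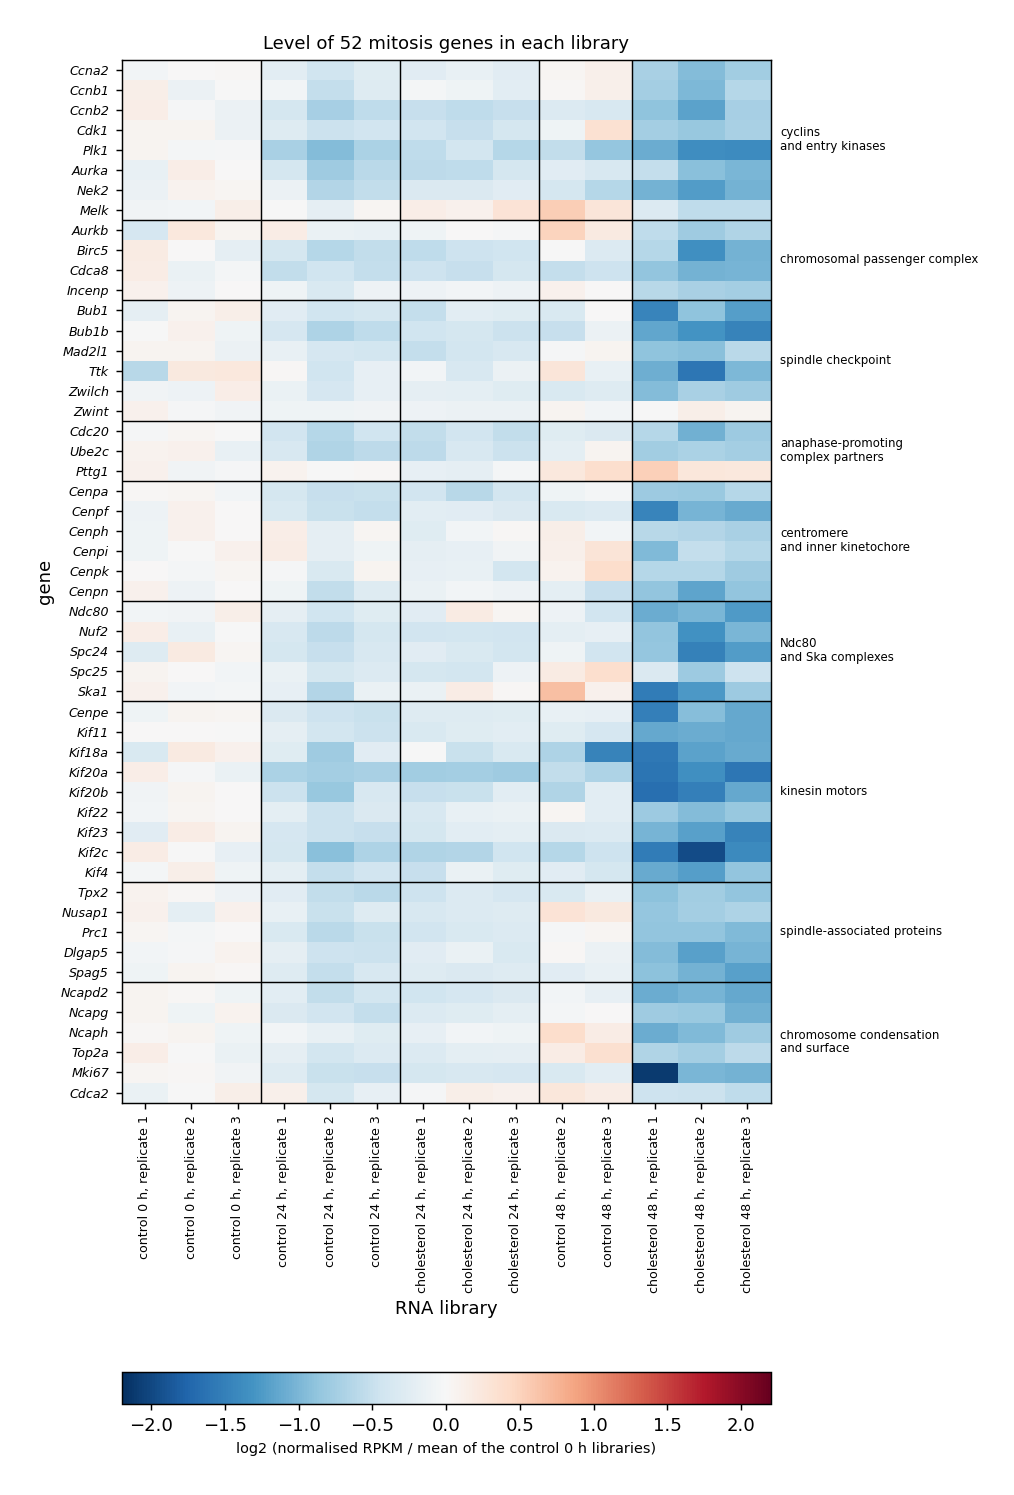
Colours show the log2 ratio of each library's normalised RPKM to the mean of the 3 control libraries at 0 h, for 52 genes in rows grouped by role and 14 libraries in columns grouped by condition. The 3 cholesterol libraries at 48 h are the darkest blue in nearly every row, with medians of 50.5% to 54.6% of the 0 h mean, and Zwint and Pttg1 are the rows that stay pale or red.

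The 8 cyclins and kinases of mitotic entry all fell at 48 h, to between 53.8% (Cdk1) and 70.4% (Aurka) of control. Ccna2 encodes cyclin A2, which pairs with cyclin-dependent kinases in S phase and G2, and lies on chromosome 3 from 36564865 to 36571996 (mm10, minus strand). It was measured at 10.4 and 10.9 RPKM in the control libraries and at 6.13, 5.19 and 5.96 RPKM in the cholesterol libraries at 48 h. The groups did not overlap, and the log2 difference was -0.79 ± 0.0716 (SE; limma, Benjamini-Hochberg adjusted p = 1.21e-05). It overlaps Exosc9 on the other strand by 862 bp, and whether the counting used strand is not given in the sources used here. The B-type cyclins Ccnb1 and Ccnb2 stood at 55.3% and 66.4% of control, and Plk1, the Polo-like kinase, at 66.3%. Aurka, the kinase of the spindle poles, had the smallest relative fall of the 8, and cholesterol replicate 1, at 1.74 RPKM, came closest to the lower control library at 1.96 RPKM.

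The chromosomal passenger complex, which corrects faulty attachments at the centromere and later acts at the midzone, fell as a whole. All 4 subunits passed the test, with a median of 58.1% of control. Aurkb, its kinase (chromosome 11, 69045637 to 69051664, plus strand), was at 6.32 and 5.18 RPKM in control cells and at 3.06, 2.62 and 2.86 RPKM in cholesterol-loaded cells at 48 h. Both control libraries lay above all 3 cholesterol libraries, and the log2 difference was -0.81 ± 0.126 (SE; limma, adjusted p = 6.52e-04). Birc5, which encodes survivin, stood at 56.4%, the scaffold Incenp at 59.7% and Cdca8, or borealin, at 71.7% of control.

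Of 6 genes of the spindle checkpoint, 5 fell. Mad2l1, whose product inhibits Cdc20 at unattached kinetochores (chromosome 6, 66535468 to 66540991, plus strand), was at 6.57 and 6.98 RPKM in the control libraries. Its cholesterol libraries at 48 h gave 3.62, 3.52 and 4.42 RPKM, all below both controls (log2 difference -0.68 ± 0.0892 SE; limma, adjusted p = 1.83e-04). Ttk, the kinase that starts checkpoint signalling, had the lowest relative level at 41.6% of control, at 0.339 and 0.457 RPKM in control and 0.126 to 0.19 RPKM in cholesterol-loaded cells, with as few as 22 tags in a library. The kinases Bub1 and the related Bub1b stood at 49.5% and 50.3%, and Zwilch, of the complex that recruits dynein to the kinetochore, at 70.9%.

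Zwint, which links that complex to the outer kinetochore, was the exception among the checkpoint genes. It was at 7.29 and 6.73 RPKM in control and at 6.93, 7.66 and 7.25 RPKM in cholesterol-loaded cells at 48 h, with overlapping groups (log2 difference 0.05 ± 0.0535 SE; limma, adjusted p = 0.575).

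Among 3 partners of the anaphase-promoting complex, its activator Cdc20 and its ubiquitin-conjugating enzyme Ube2c fell. Ube2c (chromosome 2, 164769929 to 164772902, plus strand) was at 13 and 15.6 RPKM in control cells and at 8.88, 9.24 and 8.98 RPKM in cholesterol-loaded cells at 48 h. The cholesterol libraries lay close together and well below both controls (log2 difference -0.60 ± 0.101 SE; limma, adjusted p = 0.001). Cdc20 stood at 69.2% of control. Pttg1, which encodes securin, the inhibitor of separase that this complex destroys (chromosome 11, 43420248 to 43425981, minus strand), did not pass the test. Its controls at 48 h were at 6.06 and 6.73 RPKM and its cholesterol libraries at 7.42, 6.19 and 6.06 RPKM, in one overlapping range (log2 difference 0.03 ± 0.0774 SE; limma, adjusted p = 0.84).

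Among genes of the centromere and kinetochore grouped here, Cenpf included, 6 of 6 fell, to a narrow range of 52.6% (Cenpk) to 65.5% (Cenpn) of control. Cenpa, the centromeric histone (chromosome 5, 30666886 to 30674837, plus strand), was at 5.6 and 5.84 RPKM in control cells and at 3.47, 3.43 and 3.9 RPKM in cholesterol-loaded cells at 48 h. Its groups did not overlap (log2 difference -0.55 ± 0.0638 SE; limma, adjusted p = 7.68e-05). Cenph, Cenpi, Cenpk and Cenpn, subunits of the constitutive centromere network, were low throughout at 0.219 to 1.34 RPKM and stood at 61.7%, 53.6%, 52.6% and 65.5%.

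The microtubule-binding Ndc80 and Ska complexes held the gene with the lowest relative level of all 52. Ska1 was at 1.58 and 1.06 RPKM in control cells and at 0.342, 0.415 and 0.574 RPKM in cholesterol-loaded cells at 48 h, which is 33.5% of control. The control libraries differed from each other by more than any of the cholesterol libraries did, but both lay above all 3 (log2 difference -0.68 ± 0.097 SE; limma, adjusted p = 3.48e-04). The 4 subunits of the Ndc80 complex fell to similar levels, 55.2% for Ndc80, 55.1% for Nuf2, 53.1% for Spc24 and 57.9% for Spc25.

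Of 9 kinesin motors, 8 fell. Kif20a, a kinesin of the spindle midzone and cytokinesis, was at 11 and 9.98 RPKM in control cells and at 5.25, 6.27 and 5.33 RPKM in cholesterol-loaded cells at 48 h, with no overlap (log2 difference -0.80 ± 0.0801 SE; limma, adjusted p = 2.68e-05). Kif20a overlaps Cdc23, a core subunit of the anaphase-promoting complex on the other strand, by 1594 bp, and Cdc23 stood at 79.5% of control. Kif2c, which takes apart microtubules at the centromere, had the lowest relative level of the motors at 47.4%, and Kif11, which pushes the spindle poles apart, stood at 57.8%. Kif18a, a motor that limits chromosome oscillation (chromosome 2, 109280738 to 109341746, plus strand), was at 0.101 and 0.0584 RPKM in control and at 0.054, 0.0713 and 0.0751 RPKM in cholesterol-loaded cells at 48 h. These values overlapped, rested on as few as 13 tags in a library and gave a log2 difference of -0.02 ± 0.0264 (SE; limma, adjusted p = 0.691).

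The 5 spindle-associated proteins all fell, to 49.3% (Nusap1) to 66.2% (Tpx2) of control. Prc1, which bundles the antiparallel microtubules of the midzone (chromosome 7, 80294451 to 80316259, plus strand), was at 4.49 and 4.67 RPKM in control and at 2.5, 2.49 and 2.33 RPKM in cholesterol-loaded cells at 48 h. The spread within each group was small beside the gap between them (log2 difference -0.70 ± 0.0574 SE; limma, adjusted p = 5.98e-06, the lowest of the 52 genes). Dlgap5 and Spag5, which stabilise kinetochore fibres, stood at 49.6% and 55.6%.

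Genes of chromosome condensation and of the chromosome surface fell in 6 of 6 cases, to a median of 52.2% of control, and Ncaph, a condensin I subunit, had the lowest level of them at 43.1%. Mki67, which encodes the Ki-67 protein that coats mitotic chromosomes (chromosome 7, 135689788 to 135716379, minus strand), had the largest log2 difference of the 52 genes, -0.90 ± 0.187 (SE; limma, adjusted p = 0.00412). It was at 7.41 and 7.91 RPKM in control cells and at 2.17, 4.65 and 4.55 RPKM in cholesterol-loaded cells at 48 h. Replicate 1 of the cholesterol libraries was well below the other 2, and without it Mki67 stood at 60.1% in place of 49.5% of control (log2 difference -0.63; limma, adjusted p = 8.52e-05). Its difference was then no longer the largest, behind Aurkb (-0.85) among the 52 genes and Ncapd2 (-0.81) in its role. Top2a, the topoisomerase that untangles sister chromatids, was at 7.63 and 8.69 RPKM in control and 4.31, 4.09 and 4.61 RPKM in cholesterol-loaded cells, and stood at 53.2%.

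**Figure D2:**
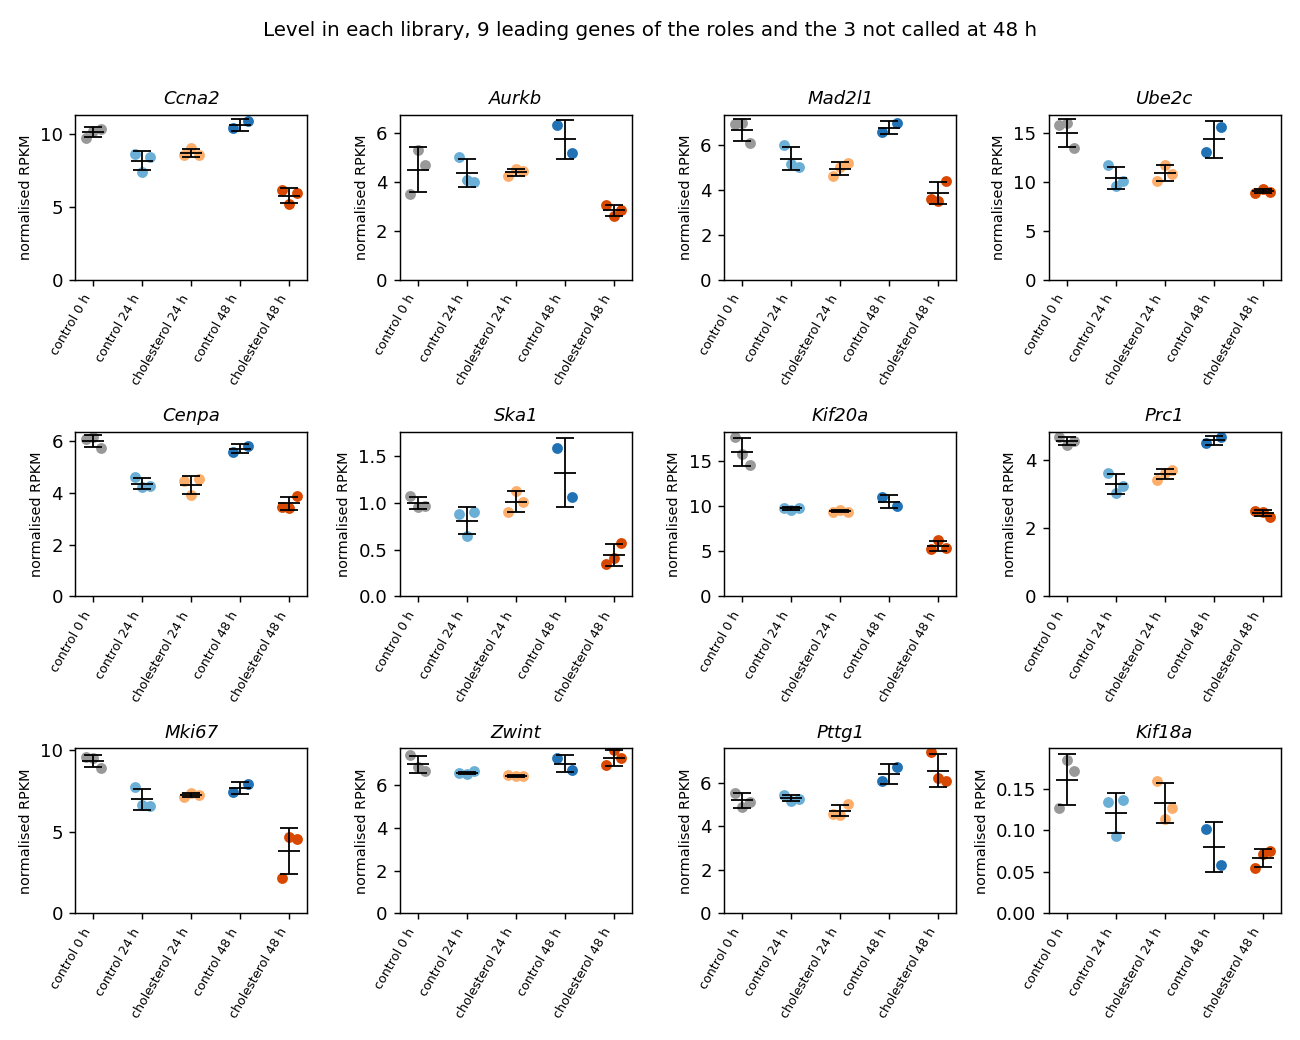
Points are normalised RPKM in each library, and bars are the mean ± SD of each group (n = 3, control 48 h n = 2), for the 9 genes with the largest log2 difference of their role at 48 h and for Zwint, Pttg1 and Kif18a. In the 9 leading genes all cholesterol libraries at 48 h lie below both controls at 48 h, and the low point of Mki67 is replicate 1 at 2.17 RPKM.

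The cholesterol libraries at 48 h also departed from each other by transcript length. Among all genes with a mean of at least 1 RPKM, the median log2 difference of replicate 1 from the other replicates was 0.14 for spliced transcripts of up to 1500 bases (1601 genes). It was -0.15 for those over 5000 bases (1267 genes). Replicate 2 departed the other way, at -0.14 and 0.10, and replicate 3 lay between them, at 0.00 and 0.06. All 5 mitosis genes with transcripts over 5000 bases were lower in replicate 1 than the mean of the other 2, with a median of -0.14, although in Top2a replicate 1 lay between them. These genes were Mki67 (10075 bases), Cenpf (11130), Cenpe (7813), Kif20b (5582) and Top2a (5217). Without replicate 1, Cenpf stood at 59.4% in place of 54.7% and Cenpe at 55.1% in place of 50% of control, Top2a hardly moved (53.3% in place of 53.2%), 49 of 52 genes still fell, and the median level was 55% of control. With replicate 2 left out instead, 48 of 52 genes fell. The part of transcript length in the results was not tested further.

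**Figure D3:**
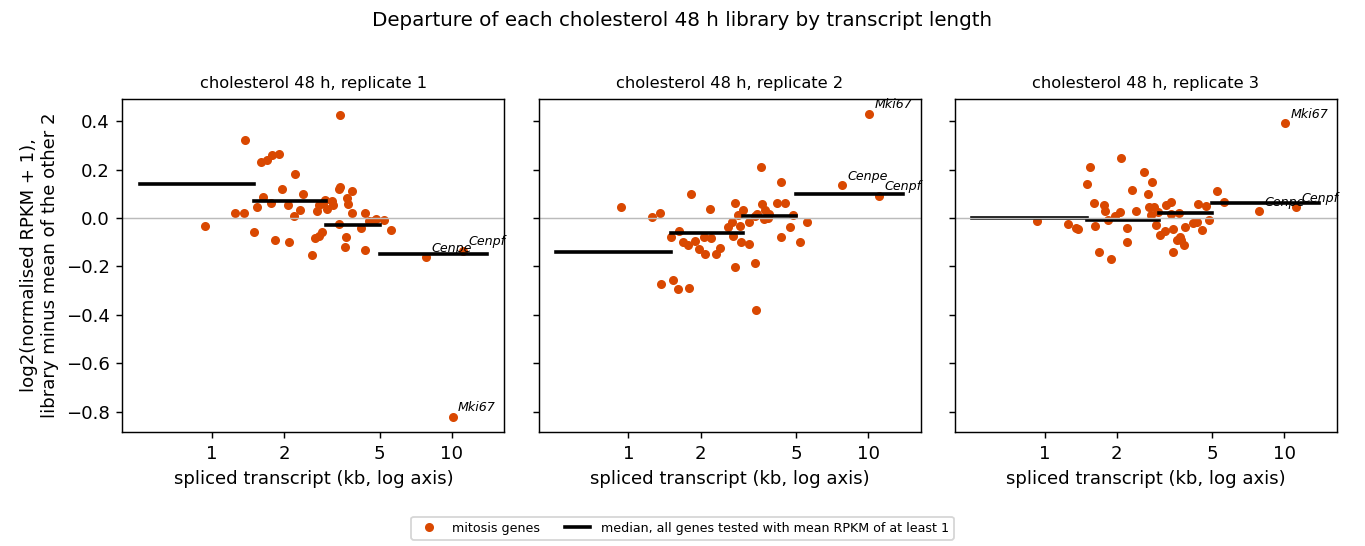
Each point is 1 of the 52 genes, placed by spliced transcript length (kb, log axis) and by the log2 difference of 1 cholesterol 48 h library from the mean of the other 2, with 1 panel per replicate. Black lines are medians over all genes tested with a mean of at least 1 RPKM, which slope from 0.14 to -0.15 in replicate 1 and from -0.14 to 0.10 in replicate 2.

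After 24 h of cholesterol loading no gene of the 52 passed the test in either direction, against 2.96% of all genes tested that fell and 2.48% that rose (limma, Benjamini-Hochberg). At an unadjusted p below 0.05 there were 3 higher and 0 lower, and with weights estimated for each library 5 passed the test as higher and 1 as lower. Levels in cholesterol-loaded cells ran from 88.8% (Pttg1) to 125% (Ska1) of control, with a median of 105% against 99.5% over all genes tested, and 12 of 52 genes lay below control. Every cholesterol library lay above every control library in 5 genes (Plk1, Melk, Cenpf, Cenpe and Ncapg) and below in 3 (Zwint, Pttg1 and Kif20a). These orderings were found in 17.9% and 21.2% of all genes tested. Plk1 had the largest difference, at 2.52, 2.12 and 2.53 RPKM in control and 2.81, 3.13 and 2.67 RPKM in cholesterol-loaded cells (log2 difference 0.19 ± 0.0765 SE; limma, adjusted p = 0.207). Of the 3 control libraries at 24 h, replicate 2 was the lowest in 40 of the 52 genes and replicate 1 the highest in 43.

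The difference between the cholesterol effects at 48 h and 24 h was tested directly. For 42 of the 52 genes the effect was lower at 48 h, and for 0 it was higher, against 3.08% and 2.29% of all genes tested (limma, Benjamini-Hochberg). Prc1 had an effect of 0.10 at 24 h and -0.70 at 48 h, a difference of -0.79 ± 0.077 (SE; limma, adjusted p = 3.01e-04). For Ccna2 the effects were 0.08 and -0.79 and for Ska1 0.16 and -0.68. The 10 genes whose difference did not pass the test were Ccnb2, Aurka, Nek2, Cdca8, Ttk, Zwilch, Zwint, Pttg1, Cenph and Kif18a. Leaving out single libraries gave between 28 and 44 genes.

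**Figure D4:**
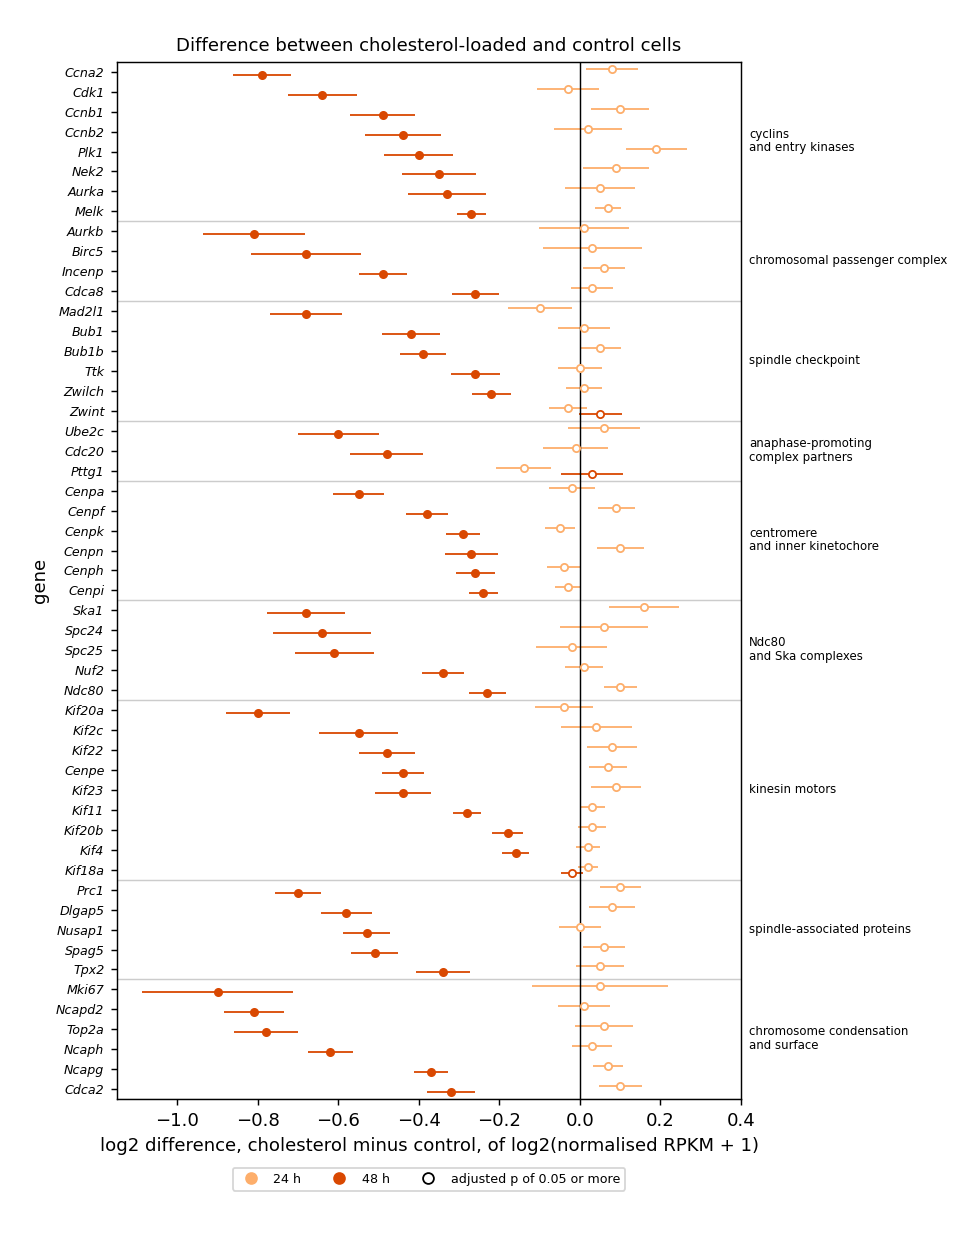
Points are the log2 difference between cholesterol-loaded and control cells for 52 genes in 9 roles, at 24 h (light) and at 48 h (dark), and bars are the SE from limma. Filled points have an adjusted p below 0.05, which holds for 49 genes at 48 h and for 0 at 24 h.

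Control cells changed with time as well, and these values show what the cholesterol groups were compared with. The 2 effects of cholesterol and the changes in control cells share libraries, so each is given by its own values. From 0 to 24 h in 0.2% BSA, 28 of 52 genes fell and 0 rose, against 3.69% of all genes tested that fell and 4.46% that rose (limma, Benjamini-Hochberg), and the median level at 24 h was 76.8% of that at 0 h. Every library at 24 h lay below every library at 0 h in 36 of the genes, against 16.9% of all genes tested. Kif20a was at 17.6, 15.8 and 14.5 RPKM at 0 h and at 9.83, 9.56 and 9.8 RPKM at 24 h, without overlap (log2 difference -0.66; limma, adjusted p = 2.23e-04). Plk1 had the lowest relative level at 58.1%. By role, 8 of 9 kinesins and 6 of 8 cyclins and entry kinases fell, against 1 of 6 checkpoint genes and 1 of 5 genes of the Ndc80 and Ska complexes, and whether these shares differ was not tested. Leaving out a library of the control cells at 24 h lowered the count of 28 to 11 (replicate 2) or 14 (replicate 3), and leaving out one at 0 h lowered it to 18 (replicate 1) or 16 (replicate 2). Replicate 1 at 0 h is the library that the study left out of its comparison with cells in vivo.

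From 24 to 48 h in control cells 11 genes rose and 0 fell, against 1.64% and 2.02% of all genes tested (limma, Benjamini-Hochberg). They were Ccna2, Cdk1, Melk, Ube2c, Cenpa, Spc25, Nusap1, Prc1, Ncapg, Ncaph and Top2a, and the median level at 48 h was 118% of that at 24 h. Top2a was at 5.93, 5.17 and 5.55 RPKM at 24 h and at 7.63 and 8.69 RPKM at 48 h (log2 difference 0.48; limma, adjusted p = 0.0114). With a control library at 48 h left out, 3 genes (replicate 2) or 0 genes (replicate 3) passed. With one of the controls at 24 h left out it was 6, 2 and 2 (replicates 1, 2 and 3), with one of the cholesterol libraries at 24 h left out 5, 5 and 6, and 7 with replicate 2 of the controls at 0 h left out. Over the whole 48 h, 9 genes fell and 2 rose in control cells, against 8.05% and 7.68% of all genes tested. Plk1, Nek2, Cdca8, Zwilch, Cenpf, Kif11, Kif18a, Kif20a and Kif2c were lower than at 0 h, and Melk and Pttg1 were higher, at 133% and 123%. The count of 9 became 5 when replicate 2 or 3 of the controls at 0 h, or replicate 3 at 48 h, was left out. The count of 2 became 0 when replicate 2 of the controls at 0 h or at 48 h was left out, and 1 when replicate 3 at 0 h, any control at 24 h or cholesterol replicate 1 or 2 at 24 h was left out.

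In cholesterol-loaded cells the same interval, from 24 to 48 h, brought a fall of 46 genes and a rise of 2, against 11.4% and 12.1% of all genes tested (limma, Benjamini-Hochberg). All libraries at 48 h lay below all those at 24 h in 48 genes, against 19.7% of all genes tested. The 2 that rose were Pttg1 (140% of the level at 24 h; log2 difference 0.40, limma, adjusted p = 0.00185) and Zwint (113%; log2 difference 0.15, adjusted p = 0.0383). Pttg1 was at 4.57, 4.53 and 5 RPKM at 24 h, below all its other libraries except control 0 h replicate 2, and then at 7.42, 6.19 and 6.06 RPKM at 48 h. The count of 2 became 1 when replicate 2 of the controls at 0 h, any library at 24 h or cholesterol replicate 2 or 3 at 48 h was left out. The lowest of the 5 group means was that of cholesterol at 48 h in 50 of 52 genes, and the 2 others were Zwint and Pttg1, which had their highest mean there. Control cells at 0 h held the highest mean in 31 genes and control cells at 48 h in 18.

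The other genes of the pathway were taken from lists drawn up by function, and their counts at 48 h stand beside 12.9% of all genes tested that fell and 11.9% that rose. Of 62 other mitosis genes 49 fell and 0 rose at 48 h, with a median log2 difference of -0.31, and 0 passed the test at 24 h. Fam64a fell to 49.4% of control (log2 difference -0.85; limma, adjusted p = 0.0012) and Ckap2, a spindle protein, to 53.1% (-0.68; adjusted p = 5.01e-05). Among those that did not pass were Bub3 (100% of control), the spindle pole protein Numa1 (102%), Mis12 (96.8%) and Dsn1 (97.9%), whose log2 differences lay between -0.04 and 0.02 and which were singled out after their values were seen. Of 15 genes of the anaphase-promoting complex, its core and the activator Fzr1, 1 fell, Cdc23. The largest difference otherwise was that of Anapc13 (log2 difference 0.21, limma, adjusted p = 0.221). Of 10 cohesin genes Smc1a (83.1% of control) and Stag2 (82.9%) fell. Counts of 1 in 15 and 2 in 10 are near the share over all genes. Both lists had a median log2 difference of -0.05, against -0.44 for the 52 genes.

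Of 21 transcription regulators of mitotic genes 10 fell and 0 rose at 48 h, against 12.9% and 11.9% of all genes tested, and 0 passed the test at 24 h. Foxm1, a forkhead factor of the G2 and M programme, was at 10.1 and 9.63 RPKM in control and at 4.87, 6.56 and 5.83 RPKM in cholesterol-loaded cells at 48 h. Its groups did not overlap, and it stood at 58.4% of control (log2 difference -0.69; limma, adjusted p = 2.55e-04). Mybl2, the B-Myb subunit that joins MuvB, stood at 54.7% (adjusted p = 0.00248), at 0.565 and 0.434 RPKM in control and 0.233 to 0.306 RPKM in cholesterol-loaded cells. E2f8, an atypical repressor of the E2F family, stood at 42.4% (adjusted p = 5.87e-04). The DREAM subunits Lin37, Lin52, Lin54, Rbbp4, E2f4, Rbl1 and Rbl2 and the NF-Y subunits Nfya and Nfyc did not pass the test, whereas Lin9, the E2F partners Tfdp1 and Tfdp2, and Nfyb fell, to 51.1%, 80.5%, 69.7% and 76.4% of control.

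The levels at 48 h are given by whether TTTGAA stood in the 300 bases around the start, as a description without a test. The 26 with it had a median of 55.4% of control (41.6% to 71.7%) and the 16 without it a median of 55.2% (43.1% to 104%), with median log2 differences of -0.44 and -0.35. Zwint, Pttg1 and Kif18a were among the 16, as were Ccnb1, Nek2, Melk, Birc5, Bub1, Mad2l1, Cenph, Cenpi, Cenpk, Nuf2, Cenpe, Nusap1 and Ncaph, all of which fell.

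H3K27ac was read within 1 kb of each start site from the region lists, as normalised tags per kilobase, with 1 library per group and so with no replicate check. A region was listed in all 5 groups for 20 of the 52 genes (38.5%), against 67.4% of all genes tested. At 48 h, 38 of 52 genes had a region in control and 33 in cholesterol-loaded cells, and 9 of the 38 (23.7%) had none in the cholesterol list, against 7.18% of all genes with a region in control. At 24 h the same loss was 5 of 40 (12.5%), against 3.91%. A region in the cholesterol list alone was found for 4 of the 52 genes at 24 h and 4 of the 52 at 48 h. Over the 12648 genes tested it was found for 454 and 527, which is a smaller share. Regions dropped out more often among the 52 genes than over all genes. The shares of gains count every gene, with or without a region in control. At 24 h 76.9% of the 52 genes had a region in control, against 86.6% of all genes tested. At 48 h it was 73.1% against 84.7%. More of the 52 genes could therefore gain a region, and whether they gained one more readily was not tested. A gene without a region was under the threshold of the caller and not without signal. Median signal at 48 h was 48.1 tags per kb over the 38 genes with a region in control, against 61 over all genes tested. It was 53.2 over the 33 genes with one in cholesterol-loaded cells, against 61.4. These medians are over different sets of genes and do not show a gain of signal.

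For the 29 genes with a region in both lists at 48 h, the median ratio of cholesterol to control was 0.937, against 1 for all genes. A fold of at least 1.5 was passed by 3 genes that were lower (Ncapg at a ratio of 0.598, Ndc80 at 0.612 and Mki67 at 0.62) and by 1 that was higher (Birc5 at 1.62), against 3.04% and 3.23% of all genes. Ccna2, at 72 against 48 tags per kb, lay just under that fold. With tags summed and not divided by the covered length, Ncapg turned to the highest ratio (1.79) and Mki67 alone was lower by that fold (0.273), and within 3 kb of the start 3 genes were higher and 5 lower. Cdk1 gave 58.3 tags per kb in control and 48.1 in cholesterol-loaded cells, Cdc20 62 and 56.7, Pttg1 61 and 53.5, and Zwint 83.6 and 78.3. Of the 3 genes whose RNA did not pass the test at 48 h, Pttg1 had a ratio of 0.876, Zwint of 0.937 and Kif18a of 1.03. These ratios lay within the range of 0.598 to 1.62 of the others. The RNA of Kif18a was too low to tell whether it fell. Aurka, whose RNA fell, had more signal with cholesterol, at 113 against 78.6 tags per kb. At 24 h the median ratio over 35 genes was 1.07, against 1.08 for all genes, with 2 higher (Kif11 at 2.22 and Kif4 at 1.61) and 1 lower (Top2a at 0.621) by that fold, against 4.11% and 1.38%.

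**Figure D5:**
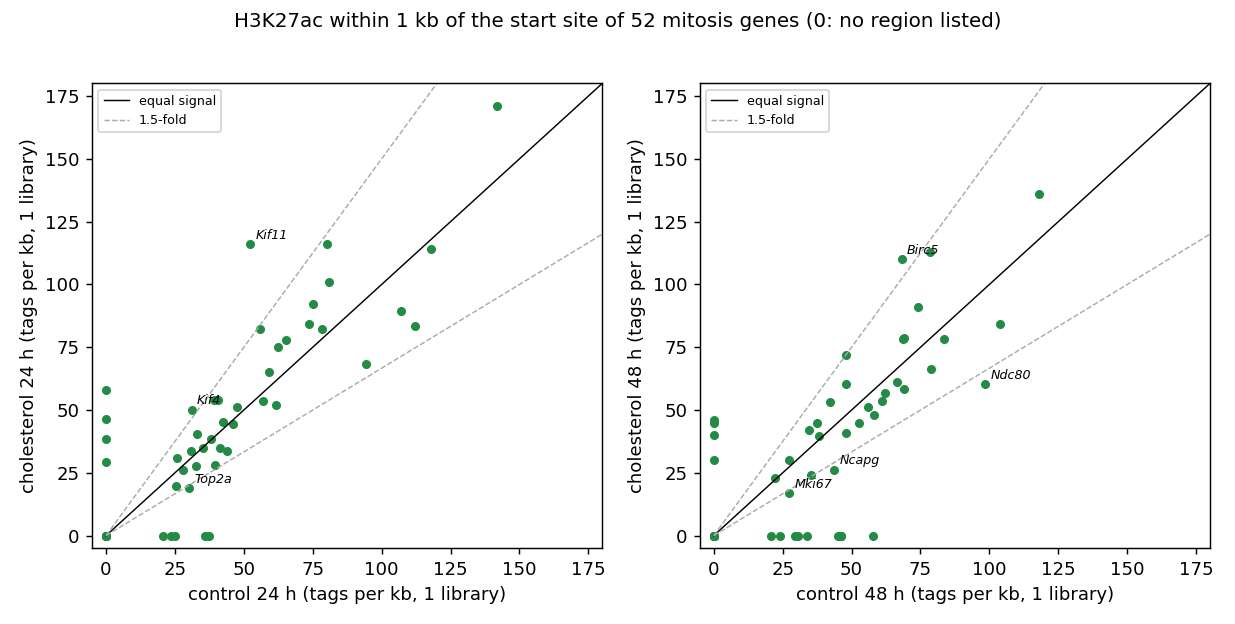
Each point is 1 of the 52 genes, with its H3K27ac tags per kb within 1 kb of the start site in control cells on the x axis and in cholesterol-loaded cells on the y axis, at 24 h (left) and 48 h (right). Points on an axis had no region in that list, the solid line is equal signal and the dashed lines are 1.5-fold, beyond which lie Birc5, Ncapg, Ndc80 and Mki67 at 48 h.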

How the data were processed

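RNA values are RPKM as deposited by the authors, who mapped reads with STAR to mm10 and counted tags with HOMER over RefSeq gene bodies per the submitters' processing notes, with no versions stated. H3K27ac regions were called by the authors with Bowtie2 and HOMER, and the deposited signal is tags per region scaled to a common total. The deposited ratio is the fold over input. At most 1 tag per position was counted, which lowers the values of highly covered genes. The strand setting of the counting is not given in the sources used here.

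Levels were rescaled by median-of-ratios factors (0.9006 to 1.052). A gene was tested where any library held over 70 reads, as estimated from RPKM and the mapped reads that the study lists. Group means were compared with limma 3.58.1 (R 4.3.3) on log2(normalised RPKM + 1) over 14 libraries, using a trended eBayes step and the Benjamini-Hochberg threshold of 0.05, and the script was tested on simulated data. A count test was not the main test because the deposited unit is RPKM. Percentages of control are ratios of group means of normalised RPKM. Library totals were recovered from RPKM steps, with values within 0.25 tag of a whole number counted as whole. Alternatives were other pseudocounts, filters, scalings, transcript rows, weights and fits, a replicate block, and each library left out. Transcript lengths and promoters came from RefSeq (GRCm38.p6). Members and lists were chosen with earlier results of these data known. Full values are given for the gene of largest log2 difference in each role and for those not called at 48 h.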

Additional observations from a re-analysis of the deposited data

Results flagged for a closer look

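The effect of cholesterol differed between time points for 42 of the 52 genes, by the limma test of the difference itself with Benjamini-Hochberg adjustment over 12648 genes. For the leading gene of each role the log2 effect at 48 h minus that at 24 h was -0.87 for Ccna2, -0.82 for Aurkb, -0.58 for Mad2l1, -0.66 for Ube2c and -0.53 for Cenpa. It was -0.84 for Ska1, -0.76 for Kif20a, -0.79 for Prc1 and -0.95 for Mki67. The value of Mki67 moves with cholesterol 48 h replicate 1, and its adjusted p of 0.0495 by limma lies next to the threshold. No group had the 4 libraries that a check for a single outlying library needs.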

How the results depend on the processing

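At 48 h the count of 49 falling genes was 42 to 49 under the other settings run on all 52 genes, among them the longest and, chosen after seeing the data, the shortest transcript row of each gene, and 31 of 33 with a mean RPKM of at least 1. At 24 h only weights per library, whose estimation stopped before it converged, gave calls, 5 higher and 1 lower. The count of 42 genes whose effect was lower at 48 h than at 24 h was 32 without a filter and 34 without rescaling. It was 48 with library weights, and 29 of 33 with a mean RPKM of at least 1. The fall from 0 to 24 h in control cells counted 14 genes without rescaling, 9 with library weights and 16 with only the groups compared. From 0 to 48 h in control cells, lower genes numbered 5 with a mean RPKM of at least 1, 3 with library weights and 2 with only the groups compared, and higher genes 1 without a filter, with a mean RPKM of at least 1, without rescaling and with voom, and 0 with library weights and with only the groups compared. From 24 to 48 h in control cells, higher genes numbered 5 without a filter, 3 without rescaling and 18 with library weights. In cholesterol-loaded cells over that interval, lower genes numbered 28 with a mean RPKM of at least 1, and higher genes 1 without rescaling, with upper quartile scaling, with the shortest transcript row, with only the groups compared and with the replicate block. Over 300 bases in place of 250, promoters with TTTGAA numbered 26 and with GCGGGAA 3. With regions at least 8-fold over input, the median H3K27ac ratio at 48 h was 1.15, over 3 genes.

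Leaving out 1 library in turn gave 43 to 49 lower genes at 48 h, 0 at 24 h, and 28 to 44 for the difference. For 0 to 24 h in control cells it gave 11 to 30 lower, for 0 to 48 h 5 to 11 lower and 0 to 2 higher, and for 24 to 48 h 0 to 13 higher. For cholesterol from 24 to 48 h it gave 39 to 48 lower and 1 to 2 higher. Replicate numbers did not pair the samples (correlations of same-numbered deviations -0.15 to 0.071). The replicate block gave 49 lower genes at 48 h, 38 for the difference, 24 for 0 to 24 h and 7 for 0 to 48 h, and 8 higher for 24 to 48 h. No single gene reversed at 48 h, and 12 of the 49 lost the call under at least 1 setting, with 21 calls lost in all. Except for fits with fewer genes or samples, the cause of these shifts was not tested.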
